A study of Capra hircus with 12 samples.

Results

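The miR-34 and miR-449 family is represented here by 3 of the 376 miRNAs listed for secondary hair follicles (SHFs) of the cashmere goat, namely miR-34a, miR-34c-5p and miR-34b-3p. Members were chosen by name, as every arm listed under miR-34a, miR-34b, miR-34c, miR-449a, miR-449b or miR-449c. miR-34a is listed without an arm, and miR-34b and miR-34c each appear with a single arm. The miR-449 members and the remaining arms were not analysed here. All 12 libraries were of SHFs dissected from back skin of Liaoning cashmere goats aged 1.5 years, and each of the 6 months has a female and a male library. February and March represented telogen (rest, 4 libraries), May early anagen and September mid-anagen (growth, 2 libraries each), and November and December catagen (regression, 4 libraries). How the goats of a time point were combined into a library is not given in the sources used here, so p-values measure the spread between libraries.

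The tumor suppressor p53 switches on transcription of the miR-34a gene and of the joint miR-34b and miR-34c gene, and the mature miRNAs in turn repress cell cycle and survival genes such as those for cyclin-dependent kinases and BCL2. The miR-449 genes make miRNAs with the same seed and are best known from epithelia that bear motile cilia. Catagen is the phase in which the lower follicle is lost by cell death. The comparison of catagen with the other phases therefore asks whether this p53-linked family was higher when the follicle regressed. In the goat RefSeq annotation (ARS1.2, another assembly than the CHIR_2.0 that the authors mapped to) MIR34C and MIR34B are direct neighbors and MIR34A lies elsewhere, next to GPR157.

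Depth ranged from 3135292 to 5788032 counts on miRNAs per library. TPM values here are counts scaled by that total, to within 0.005. The TMM factors, which correct for composition, were 1.25 and 1.29 in May, 1.01 to 1.23 in telogen and 0.813 to 0.916 in September and catagen, so TPM and TMM-adjusted CPM order the months differently and both are given. A miRNA was tested when it exceeded 5 CPM in at least 2 libraries, as 300 did. It was called DE with an adjusted p under 0.05 and at least a 2-fold change in edgeR's quasi-likelihood test. miR-34a and miR-34c-5p passed the filter. miR-34b-3p exceeded 5 CPM in 1 library and was not tested.

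The family was of modest abundance. By mean TPM over the 12 libraries, miR-34a ranked 117 of 376 (119 ± 35.7, SD, n = 12), miR-34c-5p 147 (57.1 ± 15.9) and miR-34b-3p 297 (3.13 ± 1.39). Together they summed to between 129 TPM in the male November library and 255 TPM in the male May library, and miR-34a supplied from 57.0% (female December) to 76.0% (female March) of the family's counts. The summed TPM was 184 ± 42.0 in telogen (SD, n = 4), 249 ± 9.52 in May (n = 2), 139 ± 1.80 in September (n = 2) and 161 ± 31.0 in catagen (n = 4). The family as a whole was thus not at its highest in catagen in TPM, and its libraries there, from 129 to 202, overlapped those of telogen, from 152 to 243. Without miR-34a, which carries most of the sum, the summed TPM was 64.1 ± 17.1 in catagen and 54.6 ± 20.3 in telogen (SD, n = 4 each). After TMM adjustment the sum averaged 186 ± 30.7 CPM over catagen libraries and 165 ± 22.4 over telogen libraries, against 196 ± 3.36 for May and 158 ± 10.2 for September, so the order of catagen and telogen depended on the scale, with overlap on both (146 to 198 CPM in telogen, 153 to 220 CPM in catagen). These sums describe the libraries and were not tested.

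**Figure D1:**
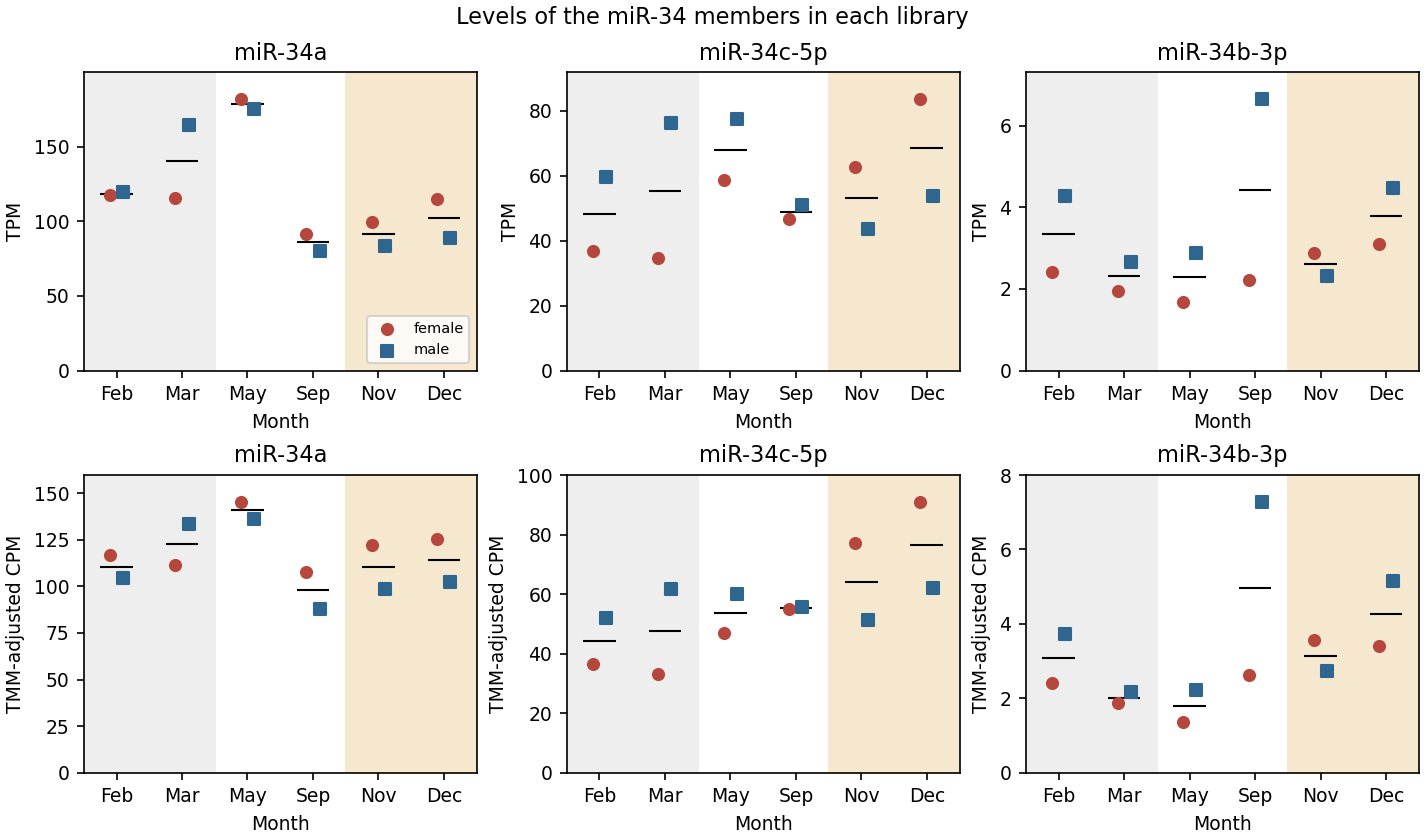
Level of miR-34a, miR-34c-5p and miR-34b-3p in each library against month, in TPM (upper row) and TMM-adjusted CPM (lower row). Circles are female and squares male libraries, bars are the mean of a month, gray marks telogen and tan catagen. miR-34a peaks in May on both scales, while the 2 sexes of miR-34c-5p change places between telogen and catagen.

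miR-34a, the member with a gene of its own, was highest in early anagen and not in catagen. Its TPM was 182 in the female and 175 in the male May library. In September it was 91.5 and 80.1. The catagen libraries held 99.25 (female November), 83.5 (male November), 115 (female December) and 88.5 (male December), and the telogen libraries 117 (female February), 120 (male February), 116 (female March) and 165 (male March). Every catagen library thus lay below every telogen library in TPM, but only just, with 115.14 as the highest catagen and 115.85 as the lowest telogen value. The 95% Wilson counting intervals of these libraries overlap, and after TMM adjustment the groups overlapped, with 98.57 to 125.6 CPM in catagen and 104.5 to 133.5 CPM in telogen. Of the 300 tested miRNAs, 28.7% had catagen and telogen libraries that did not overlap in TPM.

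Ordered by mean TPM, the months of miR-34a ran from May (178 ± 4.57, SD, n = 2) through March (140 ± 34.4), February (118 ± 1.63), December (102 ± 18.8) and November (91.4 ± 11.2) to September (85.8 ± 8.01). Among neighbors in this order, only May and March, and February and December, had libraries that did not overlap. After TMM adjustment May was still first (140.7 ± 6.58 CPM), and its 2 libraries were above those of March (122 ± 15.7). December (114 ± 16.5), February (111 ± 8.60) and November (110 ± 16.6) then followed, and September was last (97.9 ± 14.2). On this scale every month after May overlapped its neighbor in the order.

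In the fit, miR-34a did not differ between telogen and catagen beyond its error. The log2 fold change of catagen over telogen was -0.06 (standard error 0.14, 95% interval -0.35 to 0.24, adjusted p = 0.756, edgeR's quasi-likelihood test), where 10.7% of all tested miRNAs were called in either direction. With scaling by library totals it was -0.42 (adjusted p = 0.0539, same test), but that scaling also moved the median of all 300 miRNAs from 0.00 to -0.35. Against May, where 16.7% of miRNAs were called, miR-34a was at -0.33 in catagen (interval -0.69 to 0.03, adjusted p = 0.13, edgeR). DESeq2 gave -0.38 (adjusted p = 0.0305) and library totals -0.88 (adjusted p = 0.00285, edgeR), both under 2-fold. Its May libraries were above all catagen libraries in TPM, as was true in one or the other direction of 65.7% of tested miRNAs. Against September it was at 0.20 (interval -0.17 to 0.56, adjusted p = 0.899, edgeR).

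Among the phase contrasts, the largest fitted difference of miR-34a lay within anagen. September minus May came to -0.52 on the log2 scale (error 0.19, interval -0.94 to -0.10, adjusted p = 0.0536, edgeR's quasi-likelihood test), under the 2-fold limit and just short of the threshold, in a comparison where 18.3% of miRNAs were called and 77% had no overlap in TPM. DESeq2 gave -0.57 (adjusted p = 0.00389), also under 2-fold. Scaling by library totals gave -1.06 (adjusted p = 0.00382, edgeR), past both limits, as for 26.7% of miRNAs under that scaling, with a median over all miRNAs of -0.46. May minus telogen was 0.27 (interval -0.09 to 0.63, adjusted p = 0.29, edgeR), with 2.33% of miRNAs called. The May libraries exceeded all telogen libraries in TPM, and 37.7% of miRNAs separated these groups in one or the other direction. September minus telogen was -0.25 (adjusted p = 0.274, edgeR), with 9.33% called, and -0.59 with library totals (adjusted p = 0.0454, edgeR).

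miR-34c-5p, made from the joint miR-34b and miR-34c transcript, behaved differently. In telogen its TPM was 36.8 (female February), 59.7 (male February), 34.6 (female March) and 76.2 (male March). May held 58.75 (female) and 77.5 (male), and September 46.65 and 51.0. In catagen it was 62.8 (female November), 43.5 (male November), 83.6 (female December) and 53.75 (male December). The lowest values were thus those of the female telogen libraries and the highest that of the female December library, and the catagen libraries as a whole overlapped those of every other phase. In TPM the monthly means ran from 68.7 ± 21.1 in December (SD, n = 2) and 68.1 ± 13.3 in May to 48.8 ± 3.08 in September and 48.2 ± 16.2 in February, with March (55.4 ± 29.5) and November (53.2 ± 13.6) between. After TMM adjustment December (76.7 ± 20.5 CPM) and November (64.3 ± 18.3) were the 2 highest months and February the lowest (44.4 ± 11.0). On both scales every month overlapped its neighbor in the order.

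Over both sexes, miR-34c-5p had a catagen level 1.54 times that of telogen, or 0.62 on the log2 scale (standard error 0.23, interval 0.12 to 1.11), a difference that missed the threshold (unadjusted p = 0.0184, adjusted p = 0.052, edgeR's quasi-likelihood test). It stood above 82.2% of the tested miRNAs in this comparison. DESeq2 gave 0.53 (adjusted p = 0.053), and scaling by library totals 0.24 (adjusted p = 0.486, edgeR). Over the 9 alternatives other than leaving out a library, the change ran from 0.24 to 0.64. Their adjusted p ran from 0.0384 to 0.486 (edgeR or DESeq2). The adjusted p was thus not above 0.05 in every setting, but no change reached 2-fold. Leaving out 1 library at a time gave changes of 0.46 to 0.74. The difference from May was 0.40 (interval -0.22 to 1.01) and from September 0.35 (interval -0.26 to 0.96), neither past the threshold (adjusted p = 0.277 and 0.899, edgeR). With library totals the difference from May turned to -0.16, and without the female May library it was 0.0081. September and May differed by 0.05 (interval -0.65 to 0.75), although in TPM both September libraries were below both May libraries, a comparison in which 77% of tested miRNAs separated in one or the other direction. Against the mean of telogen, May and September, catagen was at 0.45 in miR-34c-5p (interval 0.02 to 0.88, adjusted p = 0.114, edgeR) and differed by -0.06 in miR-34a (interval -0.33 to 0.20, adjusted p = 0.734, edgeR). In that contrast 4% of all miRNAs were called.

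Counted over the phase comparisons, 0 of the 2 tested members were DE in any of the 7 contrasts. Between catagen and September 0% of the 300 miRNAs were called by edgeR, 23 had an unadjusted p under 0.05, and DESeq2 called 1. An unadjusted p under 0.05 was reached by miR-34c-5p for catagen against telogen and against the mean of the others, and by miR-34a for September against May. DESeq2 called neither member in the 7 contrasts.

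**Figure D2:**
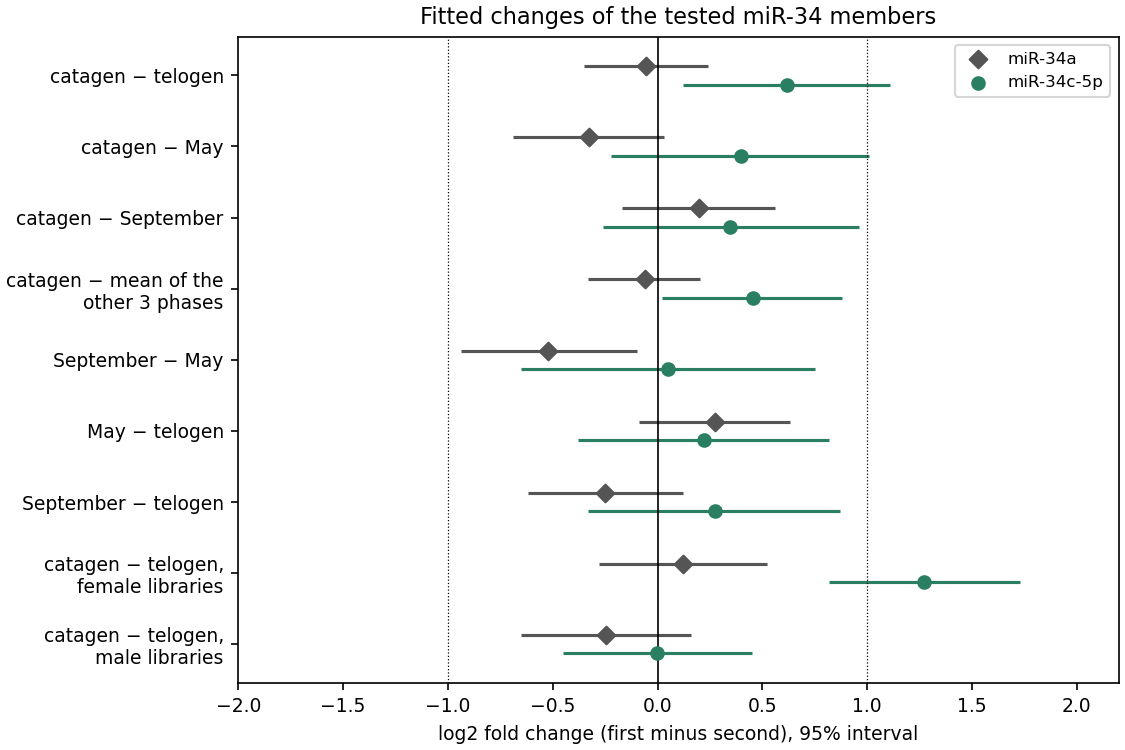
Log2 fold changes of miR-34a (diamonds) and miR-34c-5p (circles) from edgeR with TMM, with 95% intervals as lines; dotted lines mark the 2-fold limits. Only miR-34c-5p in the female libraries lies beyond a 2-fold limit, at 1.27, while miR-34a lies between -0.52 and 0.27 in the contrasts drawn.

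At the level of single months, November minus September (entry into catagen) was 0.17 for miR-34a (interval -0.30 to 0.64) and 0.21 for miR-34c-5p (interval -0.55 to 0.97), on the log2 scale. December minus November was 0.05 (interval -0.42 to 0.52) and 0.25 (interval -0.50 to 1.01). February minus December (return to telogen) was -0.04 for miR-34a (interval -0.51 to 0.42) and -0.79 for miR-34c-5p (interval -1.55 to -0.03, unadjusted p = 0.0432, adjusted p = 0.196, edgeR). Neither member was called in these 3 transitions by edgeR or DESeq2. The share of all miRNAs called was 0% at the first transition (13 with an unadjusted p under 0.05, 0 by DESeq2), 0% at the next (10, and 0 by DESeq2) and 1.33% on the return to telogen. A month has 2 libraries, and the intervals of miR-34c-5p do not exclude 2-fold changes at the last 2 transitions.

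The 2 members thus did not move together. Across the 12 libraries their log2 TMM-adjusted levels had a Pearson correlation of 0.15. The ratio of miR-34a to miR-34c-5p counts, which no scaling of the library can alter, was 3.19 (female February), 2.0 (male February), 3.35 (female March) and 2.16 (male March) in telogen. It was 3.09 (female) and 2.26 (male) in May, and 1.96 and 1.57 in September. The catagen libraries had 1.58 (female November), 1.92 (male November), 1.38 (female December) and 1.65 (male December). All 6 libraries from September to December were thus below all 6 from February to May, but only just, with 1.96 (female September) against 2.0 (male February). That gap is smaller than the mean counting error of either miRNA (4.46% for miR-34a, 6.43% for miR-34c-5p). The means were 2.68 ± 0.693 in telogen and 1.63 ± 0.223 in catagen (SD, n = 4 each). How many other pairs of miRNAs separate these libraries was not examined. This ratio was chosen after the values were seen and was not tested. As a ratio of read counts it compares libraries and is not a ratio of molecules.

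The phase pattern of miR-34c-5p differed between female and male libraries. In the female libraries its TPM was 36.8 and 34.6 in telogen but 62.8 and 83.6 in catagen, and in the male libraries 59.7 and 76.2 in telogen but 43.5 and 53.75 in catagen. In TPM every female catagen library was therefore above every female telogen library, and the reverse held in the male libraries. Of the 300 tested miRNAs, 26.3% separated upward in the female libraries in TPM, 58.7% separated downward in the male libraries, and 7.67% did both. With library totals the median of all 300 miRNAs within the male libraries was itself -0.47, so the lower male TPM of miR-34c-5p in catagen is near the shift of all miRNAs on that scale. After TMM adjustment the female libraries went from 36.6 and 33.2 CPM to 77.25 and 91.2, and the male libraries from 52.2 and 61.85 to 51.4 and 62.2. Male libraries had the higher TPM of miR-34c-5p in February, March, May and September, by ratios of female over male from 0.453 to 0.915, and female libraries in November (1.44) and December (1.55).

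Catagen minus telogen for miR-34c-5p was 1.27 on the log2 scale in the female libraries (standard error 0.20, interval 0.82 to 1.73, adjusted p = 0.00344, edgeR's quasi-likelihood test). That is a 2.41-fold rise, in a contrast where 13% of all miRNAs were called. It was called with library totals (1.04) and DESeq2 (1.12) as well. Leaving out 1 of the 4 female libraries compared gave 1.09 to 1.38, each called (adjusted p up to 0.0468, edgeR), but such a fit leaves 1 library in an arm, which is assumed to vary like the other groups. In the male libraries the difference was -0.00 (interval -0.45 to 0.45, adjusted p = 0.995, edgeR), with 10.7% of miRNAs called. The difference between the sexes was itself 1.27 (standard error 0.28, interval 0.64 to 1.91, unadjusted p = 0.00139, adjusted p = 0.0815, edgeR), which missed the threshold, where 1.33% of miRNAs passed it. It passed with library totals (1.52, adjusted p = 0.0329, edgeR, 3.67% of miRNAs called) and with DESeq2 (1.16, adjusted p = 0.0196, 8.33% called). Each sex has 2 libraries in telogen and 2 in catagen, and these come from different months. The p-values and intervals of this fit thus measure the spread between months within a sex. Sex cannot be told apart from the individual goats sampled, and the contrasts within a sex were added after the values were seen.

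miR-34a showed no such contrast. Catagen minus telogen was 0.12 in the female (interval -0.28 to 0.52) and -0.24 in the male libraries (interval -0.65 to 0.16), and the difference of 0.36 (interval -0.20 to 0.93) was not past the threshold (adjusted p = 0.456, edgeR). Over all months together, female minus male was 0.15 for miR-34a (interval -0.12 to 0.42) and -0.11 for miR-34c-5p (interval -0.56 to 0.34), on the log2 scale. In that comparison 0% of miRNAs were called by edgeR, 34 had an unadjusted p under 0.05, and DESeq2 called none.

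The summed level of epithelial marker miRNAs, which is mostly miR-203, ran in the same direction as miR-34c-5p in telogen and catagen. The list's members did not move as a group. The list holds miR-200a, miR-200b, miR-200c, miR-141, miR-429 and miR-203, all 6 of them tested and none at 0 in any library, and miR-203 is the keratinocyte differentiation miRNA. miR-205 was not analysed here. In the female libraries the sum was 64850 and 57930 TPM in telogen and 84340 and 94100 TPM in catagen. In the male libraries it was 79470 and 96690 TPM in telogen and 70180 and 67760 TPM in catagen. In May it was higher in the female library (88410 against 81370 TPM), where miR-34c-5p was lower. For 0 of the 6 was the sex difference called by edgeR, with 2 at an unadjusted p under 0.05. In the female libraries 0 rose and 1, miR-141, fell from telogen to catagen (-1.08), against 13% of all miRNAs called, and 3 of the 6 had a positive fold change (median 0.06). miR-203 was at 0.95 there, just under 2-fold (adjusted p = 0.00344, edgeR), and at 0.18 in the male libraries. Per 100000 TPM of this sum, miR-34c-5p was 56.7 and 59.7 in the female telogen and 74.4 and 88.8 in the female catagen libraries, against 75.1 and 78.8 and then 62 and 79.3 in the male libraries. In bulk follicles, fewer cells of a type and less RNA per cell cannot be told apart, and the part of epithelial content in the miR-34c-5p pattern was not tested.

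The other marker lists are given for the same groups. Mesenchymal markers (9 miRNAs) summed to 123500 to 146800 TPM in telogen and 118300 to 148900 TPM in catagen. Most of this sum was miR-143-3p, at 67100 to 92500 TPM in telogen and 86300 to 110000 TPM in catagen. The authors saw that miRNA in the hair matrix, so the sum is not a measure of mesenchyme alone. Endothelial markers (2 miRNAs) summed to 9022 to 12700 and 8819 to 11620 TPM. The endothelial sum ran from 12020 and 12700 to 8819 and 9618 TPM in the female libraries and from 9022 and 9990 to 11620 and 10120 TPM in the male ones. Muscle markers (5 miRNAs) spanned 1809 to 3550 TPM in telogen and 2411 to 3485 TPM in catagen. Leukocyte markers (4 miRNAs) spanned 442 to 664 and 393 to 540 TPM, with 1 of 4 called lower in catagen over both sexes, against 10.7% of all miRNAs called. Within the male libraries 2 of these 4 were called lower (miR-223-3p and miR-223-5p), where 10.7% of all miRNAs were called. Within the female libraries 0 of the 4 were called, where 13% of all miRNAs were, with 2 at an unadjusted p under 0.05 in edgeR. For 1 of the 4, miR-150, the sex difference itself was called (-1.81), where 1.33% of all miRNAs were. Erythrocyte markers (2 miRNAs) were higher in telogen, at 27.9 to 115 TPM against 5.41 to 26.4 TPM in catagen, with 1 of 2 called. Of all tested miRNAs, 10.7% were called and 28.7% had no overlap in TPM between these groups. The part of these cell types in the miR-34 values was not tested.

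**Figure D3:**
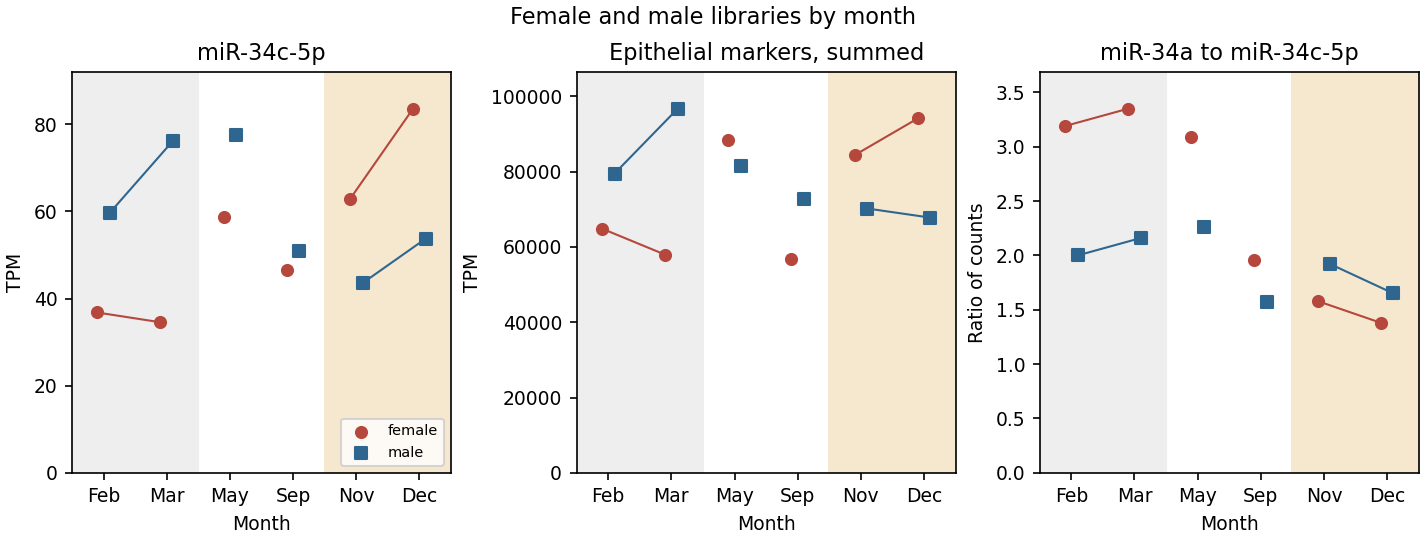
miR-34c-5p (TPM), the summed epithelial markers (TPM) and the ratio of miR-34a to miR-34c-5p counts, in each library against month. Circles are female and squares male libraries, lines join the 2 months of telogen (gray) and of catagen (tan). Female libraries lie below male ones in telogen and above them in catagen in the first 2 panels, and the ratio is below 2 from September to December.

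miR-34b-3p, from the same transcript as miR-34c-5p, was close to the limit of detection. It had 7 to 34 counts per library, so counting error alone came to a mean of 28.4% of its value, against 4.46% for miR-34a and 6.43% for miR-34c-5p. Its TPM was 2.42, 4.28, 1.96 and 2.66 in telogen (female and male February, then female and male March), 1.69 and 2.87 in May, 2.22 and 6.64 in September, and 2.89, 2.32, 3.11 and 4.46 in catagen (female and male November, then December). The male September library was the highest, with a 95% Wilson interval of 4.76 to 9.28 TPM, and the female May library the lowest (0.82 to 3.49). The telogen mean of 2.83 ± 1.01 and the catagen mean of 3.195 ± 0.907 (SD, n = 4 each) differed by less than the spread of the libraries. Tested without the filter on low counts, miR-34b-3p was at 0.51 for catagen minus telogen (standard error 0.40, adjusted p = 0.362, edgeR) and at 1.45 for September minus May (adjusted p = 0.0896, edgeR). The latter had an unadjusted p of 0.0274. After TMM adjustment both September and all catagen libraries of miR-34b-3p were above both May libraries, in comparisons where 75% and 61% of tested miRNAs separated in one or the other direction. Like miR-34c-5p, it was higher in the male than in the female library in February, March, May and September and lower in November, but not in December. Only in September did the Wilson intervals of the sexes not overlap (1.27 to 3.88 TPM in the female library, 4.76 to 9.28 in the male). The share of all miRNAs with this order of the sexes was not examined.

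The miRNAs whose log2 TMM-adjusted levels followed miR-34a most closely over the 12 libraries were miR-107-3p (Pearson r = 0.84), miR-93-5p (0.84) and miR-17-5p (0.83). All 3 had their highest mean TPM in May. For miR-107-3p it was 207 ± 7.11 in May (SD, n = 2), 110 to 167 in telogen (range, n = 4), 93.5 ± 25.6 in catagen (n = 4) and 75.3 ± 7.71 in September (n = 2). miR-17-5p and miR-93-5p belong to the seed family of the miR-17-92 cluster and its relatives, known from dividing cells. For miR-34c-5p the closest were miR-203 (r = 0.83), miR-450-5p (0.78) and miR-296-3p (0.77). The points share their libraries, TMM factors and depth. The miRNAs were picked as the highest of 298 correlations, so these values are a description. The sex difference in the change from telogen to catagen was 0.77 for miR-203, 1.72 for miR-450-5p and 1.05 for miR-296-3p. It was 1.27 for miR-34c-5p, so that pattern was not particular to this member. Among them only miR-450-5p was called (adjusted p = 0.0198, edgeR), where 1.33% of all miRNAs were.

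Other miRNAs that p53 is known to activate, or whose maturation it promotes, were mostly not called in catagen at the 2-fold limit. The list covered miR-107, miR-143, miR-145, miR-192, miR-194, miR-215, miR-200c, miR-15a, miR-16a, miR-16b and miR-22, of which 16 arms were listed and 15 tested. From telogen to catagen, 0 rose, 1 fell and 14 were not called, against 10.7% of all miRNAs, with a median log2 fold change of -0.17 (0.00 over all 300). With no fold limit 3 were higher, miR-145-5p (0.85, adjusted p = 0.00613, edgeR), miR-192-5p (0.65, adjusted p = 0.00207) and miR-143-3p (0.55, adjusted p = 0.00873). That setting called 105 of all 300 miRNAs, 63 of them higher. Against the mean of the other phases it gave 3 higher and 1 lower of the 15, where it called 72 of the 300, 49 of them higher. The one that fell past 2-fold was miR-15a-5p, known for restraining BCL2 and cyclins. Its TPM was 116 to 150 in the 4 telogen libraries, 38.8 to 70.9 in the 4 catagen libraries and 46.1 to 52 in the 2 September libraries. September minus telogen was called too (-1.11, adjusted p = 0.0043, edgeR), where 9.33% of all miRNAs were. Catagen minus telogen in the fit, after TMM adjustment, was -1.03 on the log2 scale (error 0.18, adjusted p = 0.00138, edgeR), smaller in size than the TPM alone gives. It is close to the fold limit, and without the female November, male November or female March library 0 of the 15 were called lower. Against September and against the mean of the other phases 0 of the 15 were called, by edgeR and by DESeq2, with 0 and 6 at an unadjusted p under 0.05 in edgeR. miR-192-3p was listed but too low to test, and miR-605 was not analysed here.

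Compared with May, 3 of these 15 miRNAs were higher in catagen and 1 was lower, where 16.7% of all miRNAs were called. miR-22-3p, known from mice to promote follicle regression, had a TPM of 59.2 ± 8.89 in May (SD, n = 2) and 91.4 ± 6.67 in catagen (SD, n = 4). Its fitted change after TMM adjustment was 1.18 on the log2 scale (error 0.24, adjusted p = 0.00284, edgeR), more than the TPM means give. The changes in brackets below are also from that fit and differ from those of the TPM means. miR-143-3p, abundant in mesenchyme and seen by the authors in the hair matrix of SHFs, went from 69900 ± 1180 to 96600 ± 10900 TPM (fitted change 1.02). miR-16b-3p, a minor arm, fell from 13.4 ± 2.22 to 4.10 ± 0.707 TPM (fitted change -1.14). Its catagen libraries held only 11 to 21 counts (3.18 to 4.9 TPM), below the 5 CPM of the filter, which it passed through other phases. The third with a higher level was miR-192-5p (1.01). These levels were not particular to catagen. In September the mean TPM was 103 (miR-22-3p), 109000 (miR-143-3p) and 482 (miR-192-5p), against 91.4, 96600 and 491 in catagen. Telogen had 89.8, 83800 and 399. September minus May was called for miR-22-3p (1.33) and miR-143-3p (1.17) but not miR-192-5p (0.96), where 18.3% of all miRNAs were. The 3 higher calls against May were not stable. They rose to 4 with the likelihood-ratio test, with a sex term and without the female February library. They came to 1 with RLE normalization, DESeq2 or no filter on low counts and without either May library, the male November library or either March library, and to 0 with the compared groups alone or with library totals (3 lower). The lower call was lost without the male May, female November or male December library.

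**Figure D4:**
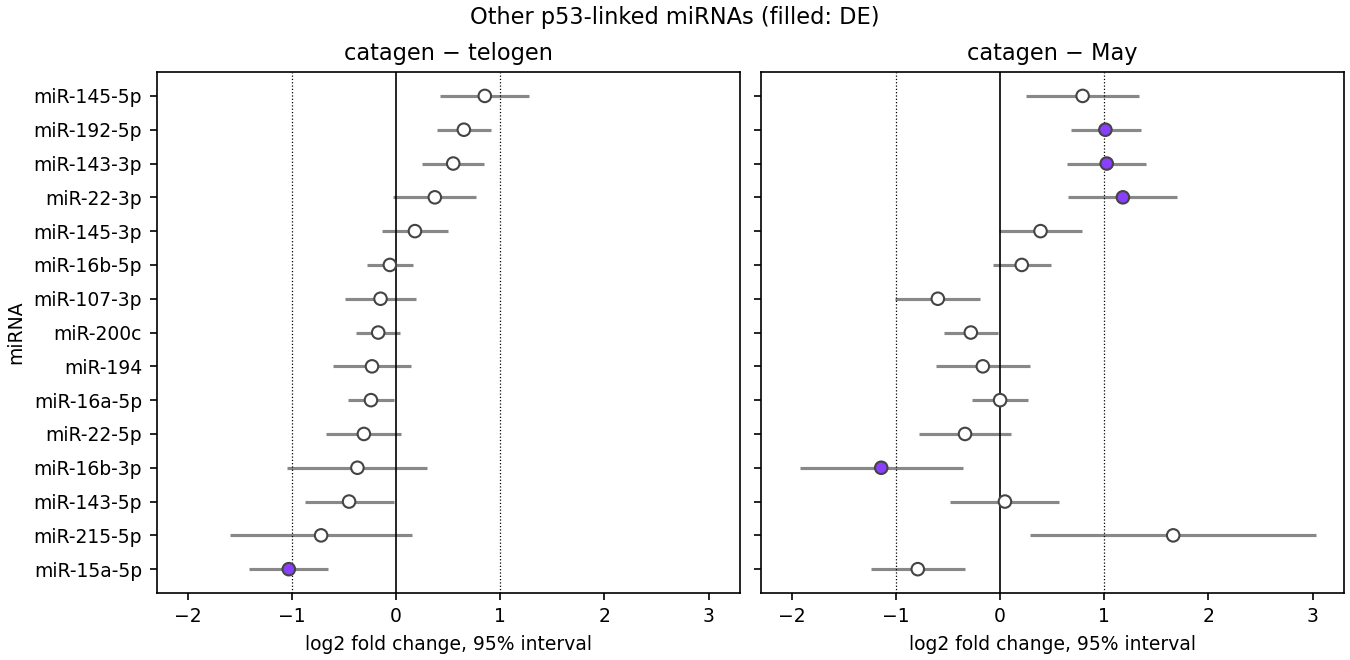
Log2 fold changes of the 15 tested p53-linked miRNAs outside the family, for catagen minus telogen (left) and catagen minus May (right), with 95% intervals; filled points were called DE and dotted lines mark the 2-fold limits. In the left panel miR-15a-5p, at -1.03, is the only filled point.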

How the data were processed

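Small RNA libraries of SHFs were analysed from 2 deposited files each. Before deposit, the authors trimmed and filtered the reads and placed them on the CHIR_2.0 goat genome. Bowtie 0.12.9, miREvo and mirDeep2 are the programs they name for alignment and miRNA detection. They deposited a raw count of each miRNA, not normalized, and a TPM value, which per the file headers and values is that count scaled to a fixed sum over the listed miRNAs. How reads matching several miRNAs were assigned is not given in the sources used here, so members of similar sequence could share reads.

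Counts were fitted in R 4.3.3 with edgeR 4.0.16 (TMM, glmQLFit, glmQLFTest), with all 12 libraries in each fit: 4 phases, 6 months, month plus sex, or phase by sex. A miRNA was tested above 5 CPM in at least 2 libraries. Adjusted p-values are Benjamini-Hochberg over all 300 tested miRNAs, and DE required 0.05 and a 2-fold change (no minimum fold for the sex difference). Standard errors are the log2 fold change over the square root of F. Levels for correlations are log2 CPM with a prior count of 1. Wilson intervals cover counting error only, since reads carry no molecular identifiers.

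Female and male libraries of a month differed beyond sampling noise (chi-square 65.2 to 635 times its degrees of freedom), so each counted as 1 replicate. Alternatives were DESeq2 1.42.0, a likelihood-ratio test, RLE and library-total scaling, other filters, fewer groups, a sex term, no fold limit and each library left out. Named miRNAs are the members, p53-linked miRNAs called in a catagen comparison and the 3 miRNAs most correlated with each tested member. For catagen against telogen, p53-linked miRNAs called higher without the fold limit are named too. The plan was to name up to 3 p53-linked miRNAs per comparison by size, and some comparisons name more. Single marker miRNAs are named where they were called. The members and lists were chosen with earlier results of these data known.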

Additional observations from a re-analysis of the deposited data

Results flagged for a closer look

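Of 12 checks for a library far from the other 3 of its phase (3 members in telogen and catagen, on 2 scales), 1 stood out. miR-34a in the male March library, at 164.5 TPM, lay away from the other telogen libraries, at 116 to 120 TPM. After TMM adjustment it was 133.5 CPM against 104.5 to 116.7 and no longer stood out. Chance flags about 1 in 20 such groups.

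The change of miR-34c-5p from telogen to catagen ran in opposite directions in the female and male libraries in TPM, in all 4 libraries of each sex. Of all tested miRNAs 7.67% did so, and with library totals the median of all miRNAs within the male libraries was -0.47, against -0.48 for miR-34c-5p. The log2 difference between the sexes was 1.27 after TMM adjustment, with an adjusted p of 0.0815 in edgeR's quasi-likelihood test, and after that adjustment the male libraries showed a difference of -0.00 in place of a lower level.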

How the results depend on the processing

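The phase comparisons kept 0 members called under all alternatives except 1, library totals, under which 1 member (miR-34a) was called for September against May. For the sex difference, 1 member (miR-34c-5p) was called with library totals, with DESeq2 and without the male February library (1.41). Over the fits without 1 library its value ranged from 1.06 to 1.41 and the count from 0 to 1. Signs turned only for differences that were called neither way. With library totals, miR-34c-5p was at -0.16 for catagen against May, -0.48 for September against May and -0.0827 for September against telogen, and miR-34a at 0.22 from December to February (0.0941 with DESeq2) and -0.12 from telogen to catagen in the female libraries (-0.0295 with DESeq2). With the compared groups alone, miR-34c-5p was at -0.0389 for September against May. The cause was not tested.

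Leaving out 1 library at a time, miR-34a ranged from -0.11 to 0.0039 for catagen against telogen, -0.12 to 0.0037 against the mean of the others, -0.16 to 0.16 from November to December, -0.16 to 0.13 from December to February and -0.026 to 0.17 within the female libraries. miR-34c-5p ranged from -0.36 to 0.21 for September against May, -0.0567 to 0.48 from September to November, -0.10 to 0.52 from November to December, -0.13 to 0.12 within the male libraries and -0.25 to 0.0056 for female against male. The number of calls over all miRNAs also moved, from 50 to 82 between catagen and May and from 12 to 22 against the mean of the others with library totals, and for the sex difference from 4 to 11 with library totals and 25 with DESeq2. DESeq2 also gave 13 in place of 7 calls between May and telogen and 10 in place of 4 between February and December, and library totals 4 in place of 7 between May and telogen and 68 in place of 32 within the male libraries. The same May contrast gave 13 calls with the likelihood-ratio test, 15 with a sex term and 0 with the compared groups alone, which gave 18 in place of 28 between September and telogen. Without the fold limit 105 were called between catagen and telogen, 111 against May, 72 against the mean of the others, 102 between September and May, 16 between May and telogen and 76 between September and telogen, still with 0 members. Leaving out 1 library at a time moved the number of calls over all miRNAs from 7 to between 0 (without male May) and 27 (without male March) for May against telogen, from 28 to as few as 6 (without female September) for September against telogen, from 55 to as few as 27 (without female September) for September against May, from 50 to as few as 27 (without male May) for catagen against May, from 12 to as few as 5 (without female November) against the mean of the others, and from 4 to between 0 and 16 for February against December. For the sex difference it ran from 1 (without male November) to 20 (without male February), within the female libraries from 17 (without female November) to 56 and within the male libraries from 1 (without male November) to 45. With library totals 5 of 48 calls between catagen and telogen were higher, against 13 of 32 with TMM. The planned ratio of the arms of a precursor was not run, since a single arm of each was analysed.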
